A study of Cannabis sativa with 10 samples.

Results

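The genes described here are 4 MADS-box transcription factor genes of Cannabis sativa, taken by gene identifier from the 35192 genes of the deposited table: LOC115697576 and LOC115700192, both described there as floral homeotic protein AGAMOUS, LOC133031811, described as AGL11, and LOC115698701, described as MADS1. They were chosen by annotation, with earlier results of these data known. Levels are in FPKM, fragments scaled by the length of the gene and by the depth of the library, and all 4 genes passed a filter on low values, which asked for a group mean of 1 FPKM or more somewhere among the 5 groups. RNA came from apical shoot tips of genotype A3, and there were 2 libraries in each of 5 groups: vegetative apices, apices under female flower induction at weeks 1 and 3, and apices under male flower induction at weeks 1 and 3. The labels give STS for every male library and for no other; it is read here as silver thiosulfate, a blocker of ethylene perception that makes female cannabis plants form male flowers. Sex of the flowers and STS treatment therefore cannot be told apart below. The p-values set a difference against the spread between libraries of a group, pooled over the 5 groups and drawn toward that of other genes. The labels do not say that the libraries of a group came from separate plants, so that spread may be technical. Plant age is not given in the labels used here.

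In Arabidopsis, AGAMOUS is the class C gene of the floral ABC model: it is needed for stamens in the third whorl and carpels in the fourth, and it ends the activity of the floral meristem. SHATTERPROOF1 belongs to the same clade and acts in the valve margins of the fruit and in carpel and ovule development, while SEEDSTICK, also called AGL11, is the class D gene of ovule identity. These proteins work in complexes with SEPALLATA proteins, and stamen identity further requires the class B proteins APETALA3 and PISTILLATA.

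Coordinates are those of assembly ASM2916894v1 in the deposited table. AGAMOUS, LOC115697576, lies on the minus strand of chromosome 7 at 61415108 to 61423167, a span of 8060 bases. Its closest Arabidopsis protein is AGAMOUS at 63.64% identity, and the table puts it in the MIKC class, the class of the floral organ identity genes. MADS1, LOC115698701, lies on the minus strand of chromosome 8 at 47921850 to 47932962, a span of 11113 bases. Its closest Arabidopsis protein is SHATTERPROOF1 at 61.31% identity, and it is also listed as MIKC. AGL11, LOC133031811, lies on the plus strand of the X chromosome at 71236908 to 71244796, a span of 7889 bases. Its closest Arabidopsis protein is SEEDSTICK at 72.84% identity, and no class is listed for it.

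LOC115700192 stands apart from the other 3 genes in its annotation. It lies on the minus strand of the X chromosome at 81938054 to 81940559, a span of 2506 bases, its closest Arabidopsis protein is SEEDSTICK at 32% identity, and the table lists it as M-type, the MADS class that lacks the further domains of the floral organ identity proteins. The percent identity and the listed class thus go against its product name, and it is called by its identifier below. Another pair of genes carry the AGL11 description and are not members. LOC115723650 was listed at 0 in all 10 libraries, and LOC115702756, at 29.59% identity to SEEDSTICK, did not exceed 0.101 FPKM in any library.

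The class C gene AGAMOUS was near 0 in vegetative apices and highest in female apices at week 3. Replicates 1 and 2 held 0.720 and 0.0536 FPKM in vegetative apices. At week 1 the female libraries held 2.96 and 4.15 FPKM and the male libraries 5.41 and 3.66 FPKM. At week 3 the values were 88.5 and 66.5 FPKM for female and 34.9 and 40.5 FPKM for male libraries. The week 1 libraries of both sexes overlapped each other and lay above the vegetative libraries, and the week 3 libraries lay above all others, with both female libraries above both male ones. All differences below are of log2(FPKM + 1), so folds are understated where levels are low. AGAMOUS was higher than in vegetative apices by 1.75 ± 0.26 in female week 1 and by 2.02 ± 0.26 in male week 1 (log2 difference ± SE; limma adjusted p = 0.00567 and 0.00196). The corresponding differences at week 3 were 5.85 ± 0.26 in female and 4.84 ± 0.26 in male apices (limma adjusted p = 5.19e-07 and 1.51e-07). Among the 18309 genes tested, the rise of AGAMOUS in female week 3 over vegetative apices ranked 12 by size. The female week 1 call was lost without female week 1 replicate 2 (adjusted p = 0.0575; range over the alternatives 0.00226 to 0.0575). Both week 1 differences had an adjusted p over the threshold in the authors' deposited table, at 0.184 and 0.178.

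Between the sexes, AGAMOUS did not pass the test at week 1, with a male minus female difference of 0.28 ± 0.26 (limma adjusted p = 0.943). At week 3 its mean level was 77.5 ± 15.6 FPKM in female and 37.7 ± 3.99 FPKM in male apices (SD, n = 2), 2.06-fold higher in female apices. The male minus female difference was -1.01 ± 0.26 (limma adjusted p = 0.00723). That call was lost without female week 3 replicate 1 (-0.81, adjusted p = 0.0683), without male week 3 replicate 1 (-0.90, adjusted p = 0.0635) and with a pseudocount of 0.1 (-1.03, adjusted p = 0.178; range over the alternatives 0.00057 to 0.178). From week 1 to week 3 AGAMOUS rose in both sexes, by 4.10 ± 0.26 in female and by 2.82 ± 0.26 in male apices (limma adjusted p = 7.94e-06 and 8.28e-06). The groups ran, from the top, female week 3, then male week 3, then male and female week 1, then vegetative apices. The pair of week 1 groups did not differ beyond their spread.

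MADS1, the gene closest to SHATTERPROOF1, had the same order of groups at lower levels. Replicates 1 and 2 held 0.310 and 0.0578 FPKM in vegetative apices. At week 1 female libraries held 1.20 and 1.78 FPKM and male libraries 2.09 and 1.70 FPKM. At week 3 female libraries held 17.84 and 17.85 FPKM and male libraries 3.69 and 3.36 FPKM. The week 1 libraries overlapped between the sexes, and every other neighbouring pair in the order was separated. MADS1 was higher than in vegetative apices by 1.07 ± 0.18 in female week 1 and by 1.29 ± 0.18 in male week 1 (limma adjusted p = 0.00875 and 0.00252). At week 3 it was higher by 4.0 ± 0.18 in female and by 1.94 ± 0.18 in male apices (limma adjusted p = 4.97e-07 and 7.26e-06). At week 3 it was 5.06-fold higher in female than in male apices, a male minus female difference of -2.06 ± 0.18 (limma adjusted p = 5.04e-06). At week 1 the difference was 0.22 ± 0.18 (limma adjusted p = 0.927). From week 1 to week 3 it rose by 2.93 ± 0.18 in female and by 0.65 ± 0.18 in male apices (limma adjusted p = 6.21e-06 and 0.00951).

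Several of the smaller MADS1 differences depended on 1 library or on the pseudocount. The female week 1 rise over vegetative apices missed the threshold without vegetative replicate 2 (adjusted p = 0.0642), without female week 1 replicate 2 (adjusted p = 0.0896) and with a pseudocount of 5 (adjusted p = 0.0519; range over the alternatives 0.00593 to 0.0896). The male rise from week 1 to week 3 missed it without male week 1 replicate 2 (adjusted p = 0.0518) and with a pseudocount of 0.1 (adjusted p = 0.0874; range over the alternatives 0.00635 to 0.0874), and its adjusted p was 0.116 in the authors' deposited table.

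AGL11, the counterpart of the ovule gene SEEDSTICK, was present at week 1 in both sexes and at week 3 differed 76.3-fold between them. Replicates 1 and 2 held 1.12 and 0.513 FPKM in vegetative apices. At week 1 female libraries held 8.17 and 10.2 FPKM and male libraries 9.61 and 6.83 FPKM. At week 3 female libraries held 83.8 and 69.8 FPKM and male libraries 1.17 and 0.846 FPKM. The female and male libraries overlapped at week 1, the female week 3 libraries lay above all others, and the male week 3 libraries overlapped the vegetative ones. Against vegetative apices AGL11 was higher by 2.5 ± 0.22 in female and by 2.35 ± 0.22 in male week 1 apices, and by 5.43 ± 0.22 in female week 3 apices (limma adjusted p = 0.000401, 0.000464 and 3.09e-07). The difference between male week 3 and vegetative apices was 0.16 ± 0.22 (limma adjusted p = 0.548).

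With time AGL11 moved in opposite directions in the sexes. From week 1 to week 3 it rose by 2.94 ± 0.22 in female apices, an 8.38-fold difference of means, and in male apices the difference was -2.19 ± 0.22, an 8.17-fold lower mean (limma adjusted p = 1.91e-05 and 1.39e-05). The male minus female difference was -0.15 ± 0.22 at week 1 (limma adjusted p = 0.991) and -5.28 ± 0.22 at week 3 (limma adjusted p = 2.41e-08). Among the 18309 genes tested, the difference of AGL11 between male and female week 3 apices ranked 13 by size among those lower in male apices. All 8 called differences of AGL11 between pairs of groups stayed called in every alternative run.

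LOC115700192 had a pattern shared by none of the other 3 genes, with a high level in male week 3 libraries alone. Replicates 1 and 2 held 2.91 and 3.76 FPKM in vegetative apices. At week 1 female libraries held 2.98 and 4.18 FPKM and male libraries 5.31 and 3.11 FPKM. At week 3 female libraries held 2.88 and 2.38 FPKM and male libraries 285.9 and 254.5 FPKM. The first 4 groups lay between 2.38 and 5.31 FPKM, and both male week 3 libraries lay far above them. The male minus female difference at week 3 was 6.22 ± 0.22, a 103-fold difference of means (limma adjusted p = 8.16e-09). Male week 3 was higher than male week 1 by 5.73 ± 0.22 and than vegetative apices by 5.97 ± 0.22 (limma adjusted p = 1.36e-08 and 1.01e-08). None of the 6 comparisons among the first 4 groups was called by limma, and 1 had an unadjusted p under 0.05. That difference, -0.49 ± 0.22 for female week 3 minus male week 1 (limma unadjusted p = 0.0486, adjusted p = 0.107), was called without male week 1 replicate 2 (-0.80, adjusted p = 0.015; range over the alternatives 0.015 to 0.54). In the male week 3 libraries LOC115700192 ranked 413 and 500 from the top of all genes by level, and in female week 3 it ranked 14409 and 14807.

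**Figure D1:**
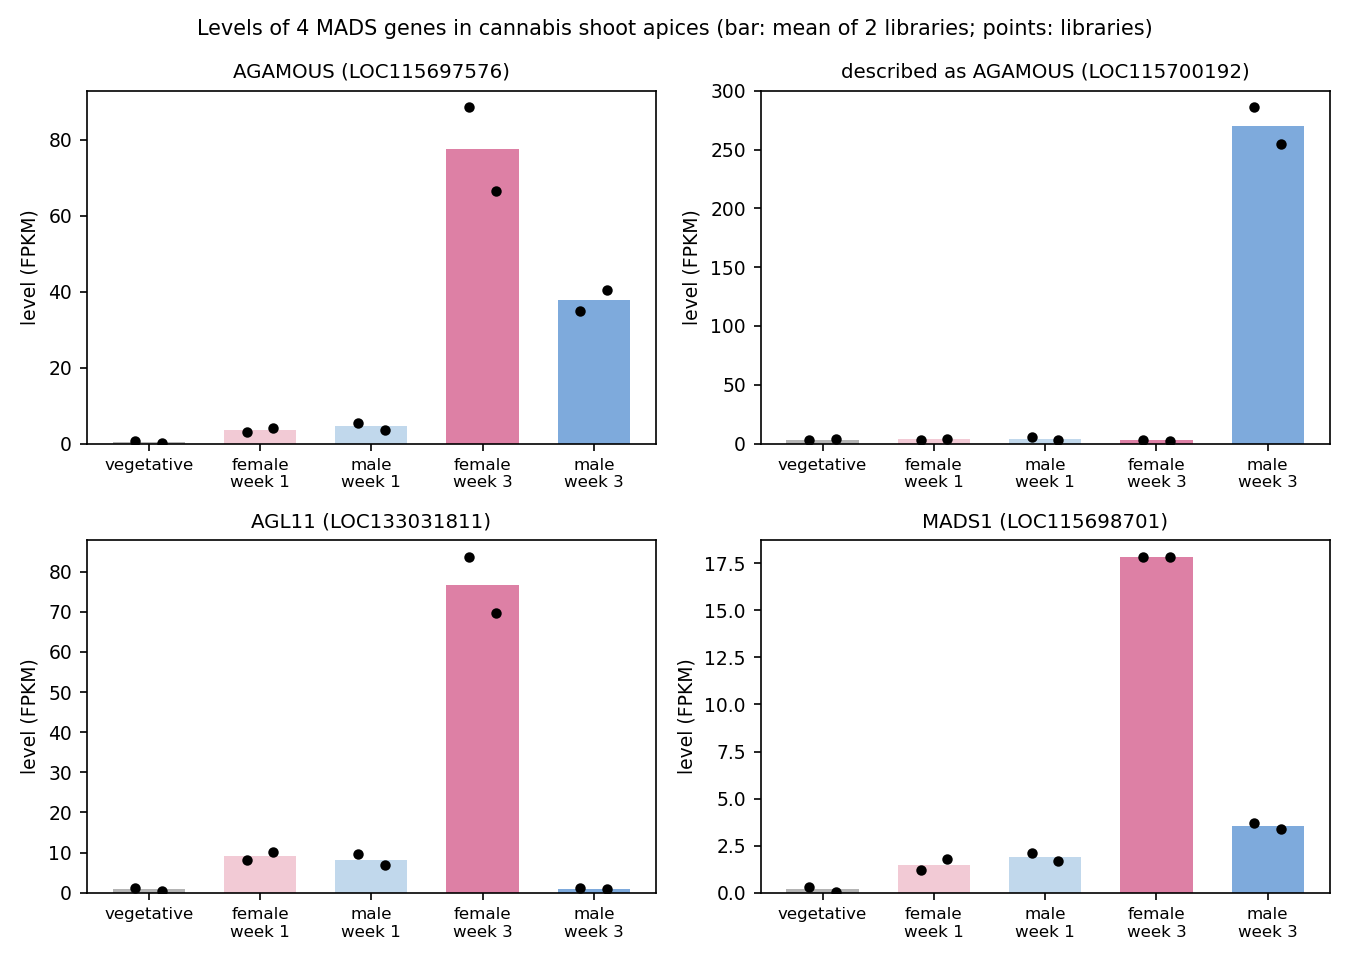
Level in FPKM (vertical axis, from 0, a different range in each panel) of AGAMOUS, LOC115700192, AGL11 and MADS1 in the 5 groups; bars are means of 2 libraries and points are the libraries. AGAMOUS, AGL11 and MADS1 are highest in female week 3, at means of 77.5, 76.8 and 17.8 FPKM, and LOC115700192 is highest in male week 3, at a mean of 270.2 FPKM.

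Read across comparisons, AGAMOUS, AGL11 and MADS1 were higher in female week 1 than in vegetative apices, 3 of the 4 genes, where 4.94% of all genes tested were called and 2.67% were called higher. The count was the same in male week 1, where 6.4% were called and 3.54% higher. The same 3 genes were higher in female week 3 than in vegetative apices, where 36.5% were called and 19.8% higher. In male week 3, where 62.8% were called and 34.8% higher, the 3 higher genes were AGAMOUS, MADS1 and LOC115700192.

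None of the 4 was called by limma between the sexes at week 1, where 25 of all genes tested, or 0.137%, were called. None had an unadjusted p under 0.05, their values running from 0.238 to 0.506, and none passed in the authors' deposited table. The number of genes called ran from 5 to 86 when single libraries were left out, and it was 86 without male week 1 replicate 2. At week 3 all 4 differed between the sexes, with LOC115700192 higher and the other 3 lower in male apices. In that comparison 60.3% of all genes tested were called, 31.7% higher and 28.6% lower, so a call by itself sets the 4 genes little apart from other genes. From week 1 to week 3 the genes called were 35.2% in female and 61.7% in male apices. Across sex and week they were 62.3% for male week 3 against female week 1 and 36.1% for female week 3 against male week 1.

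The sex difference itself changed between the weeks for all 4 genes. The interaction, the male minus female difference at week 3 minus that at week 1, was -5.13 ± 0.31 for AGL11, 6.06 ± 0.31 for LOC115700192 and -2.28 ± 0.25 for MADS1 (limma adjusted p = 7.74e-07, 2.62e-07 and 5.29e-05), and 45.6% of all genes tested were called. For AGAMOUS it was -1.28 ± 0.37 (limma adjusted p = 0.017), which was not called without female week 1 replicate 1, female week 3 replicate 1 or male week 3 replicate 1 (adjusted p = 0.0623, 0.0746 and 0.0735) or with a pseudocount of 0.1 (adjusted p = 0.237; range over the alternatives 0.00281 to 0.237).

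**Figure D2:**
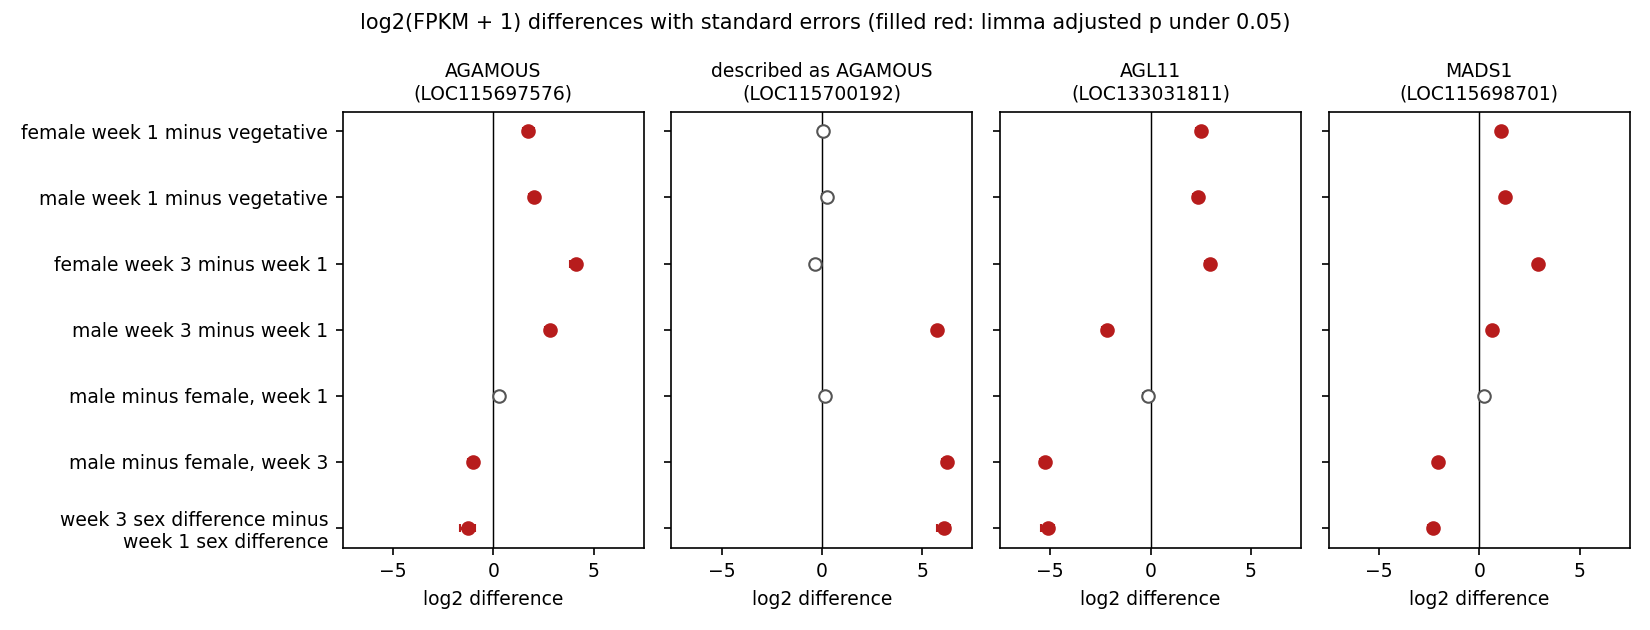
Differences on the log2(FPKM + 1) scale (horizontal axis) with standard errors for 7 comparisons (rows) in the 4 genes (panels); filled points have a limma adjusted p under 0.05. All 4 genes lie near 0 between the sexes at week 1, and at week 3 LOC115700192 lies at 6.22 while AGAMOUS, AGL11 and MADS1 lie at -1.01, -5.28 and -2.06.

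The balance among the genes, which FPKM allows to be compared because it is set per length, shifted with stage and sex. In female week 3 libraries AGAMOUS and AGL11 were close to equal, with AGAMOUS to AGL11 ratios of 1.06 and 0.953 and shares of the summed level of the 4 genes of 45.9% and 42.5% for AGAMOUS and 43.4% and 44.6% for AGL11. In male week 3 libraries the same ratio was 29.9 and 47.9. LOC115700192 held 87.8% and 85.05% of the summed level there, against 1.49% and 1.52% in female week 3. Leaving LOC115700192 aside, AGAMOUS made up 87.8% and 90.6% of the remaining sum in male week 3 and 46.5% and 43.1% in female week 3. At week 1 AGL11 was the most abundant of the 4 in every library of either sex, at 53.3% and 50.1% in female and 42.9% and 44.6% in male apices. MADS1 held between 1.12% and 11.4% of the sum in each library.

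**Figure D3:**
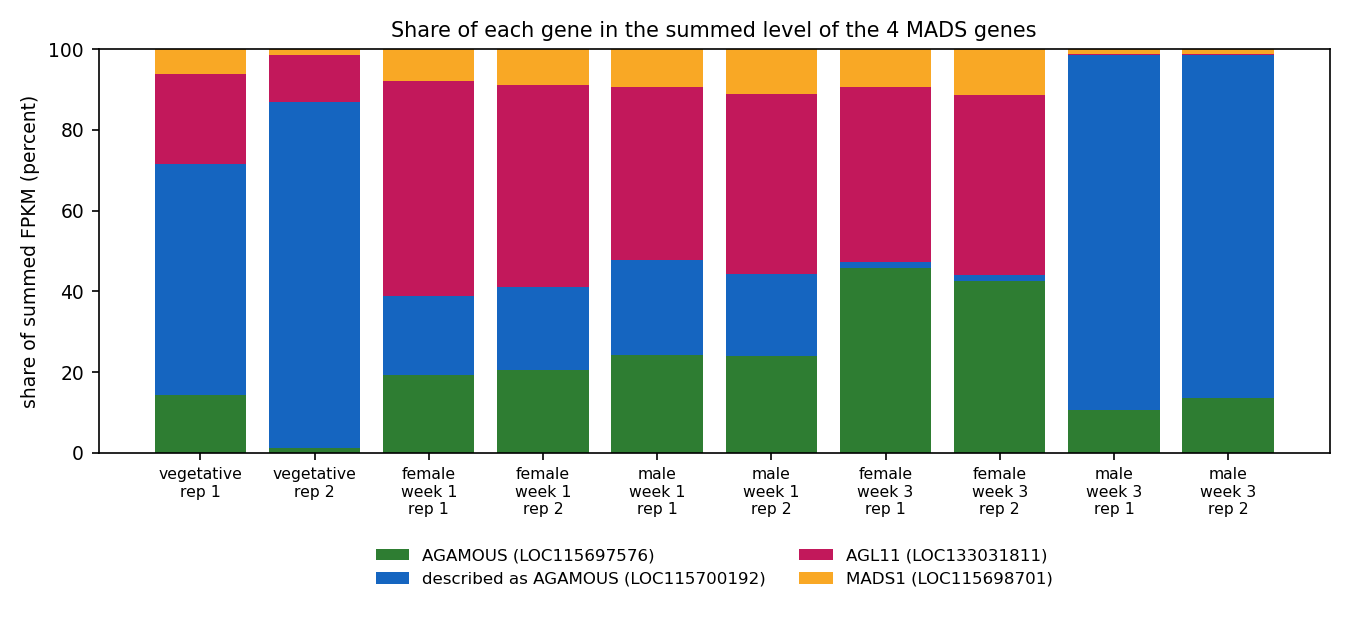
Share in percent (vertical axis) of each of the 4 genes in their summed FPKM, by library (horizontal axis). Week 1 libraries of both sexes have like divisions with AGL11 as the largest part, female week 3 libraries are divided mainly between AGAMOUS and AGL11, and male week 3 libraries are mostly LOC115700192, at 87.8% and 85.05%; the sum in the vegetative libraries is only 5.06 and 4.38 FPKM.

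The other floral MADS-box genes were taken by product description or closest Arabidopsis protein. There were 18, of which 16 passed the filter, and none had CAULIFLOWER or SEPALLATA4 as its closest Arabidopsis protein, although some carry a CAULIFLOWER description. Between male and female week 3 apices, 31.7% of all genes tested were called higher and 28.6% lower. Of the 16 MADS-box genes 3 were higher, 9 lower and 4 not called, with a median difference of -1.01 against -0.02 over all genes tested. Those higher in male apices were led by the class B genes TM6, closest to APETALA3, at 163 ± 9.95 FPKM, and PMADS2, closest to PISTILLATA, at 119 ± 10.2 FPKM in male week 3 (SD, n = 2). The third, LOC115709018, closest to SEPALLATA2, was at 14.8 ± 1.87 FPKM in male and 3.51 ± 0.697 FPKM in female apices. LOC115700192 exceeded TM6 by 1.68-fold and 1.64-fold and PMADS2 by 2.26-fold and 2.28-fold in the male week 3 libraries.

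The class E gene MADS4, closest to SEPALLATA3, stood at 75.1 ± 12.4 FPKM in female and 35.5 ± 2.97 FPKM in male week 3 apices. AGAMOUS stood in a near equal ratio to it in both, at 1.05 and 1.0 in female and 0.927 and 1.21 in male libraries. TT16 is a gene of the ovule and seed coat in Arabidopsis. Of the pair of genes closest to it, LOC115707234 was at 11.4 ± 2.40 FPKM in female and 0.878 ± 0.0584 FPKM in male week 3 apices, and LOC115700907 at 10.6 ± 1.79 and 0.296 ± 0.208 FPKM. Both were called lower in male apices.

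Against vegetative apices, 8 of these 16 genes were higher and 1 lower at week 1 of female flowering, and 9 were higher and 1 lower at week 1 of male flowering. At week 3 the counts were 12 higher and 2 lower for female and 13 higher and 1 lower for male apices. Over all genes tested, 2.67% in female and 3.54% in male apices were called higher at week 1. At week 3 these shares were 19.8% and 34.8%. Of the 18309 genes tested, 416 in female and 523 in male apices were called lower at week 1. At week 3 the numbers called lower were 3067 in female and 5117 in male apices. The single fall in female week 1 was lost without either vegetative library or without either female week 1 library, and there were 2 falls without either male week 1 library. The comparisons with vegetative apices share the same pair of vegetative libraries.

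Genes known in Arabidopsis as regulators of AGAMOUS were matched for all names of the list but HEN4. Of 17 genes, 16 passed the filter. Between male and female week 3 apices 31.7% of all genes tested were called higher and 28.6% lower. Of the 16 regulators 6 were higher, 6 lower and 4 not called, with a median of 0.06, so these counts set the list little apart. The count of higher genes was 3 without female week 3 replicate 1 and 3 after scaling to equal totals. The LEAFY homolog LOC115695615, whose Arabidopsis counterpart activates AGAMOUS, stood at 1.07 ± 0.0443 FPKM in vegetative apices (SD, n = 2). It was at 4.90 ± 1.24 FPKM in female and 7.12 ± 1.86 FPKM in male apices at week 1, and at 2.75 ± 0.0123 and 5.18 ± 1.06 FPKM at week 3. From week 1 to week 3 it fell by 0.64 ± 0.21 in female apices (limma adjusted p = 0.0406), while AGAMOUS rose. In male apices its difference of -0.39 ± 0.21 was not called (limma adjusted p = 0.138), and the male libraries of the 2 weeks overlapped.

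WUSCHEL, LOC115711960, is a stem cell gene that activates AGAMOUS and is shut off through it in Arabidopsis. It was listed at 0 in vegetative apices and stood at 0.303 ± 0.141 FPKM in female and 4.21 ± 2.20 FPKM in male week 3 apices, a difference of 1.94 ± 0.25 (limma adjusted p = 9.31e-05). AINTEGUMENTA, LOC115712812, a growth gene that restricts AGAMOUS in Arabidopsis, stood at 36.6 ± 0.182 FPKM in female and 6.02 ± 0.345 FPKM in male week 3 apices, a difference of -2.42 ± 0.16 (limma adjusted p = 6.01e-07). The gene LOC115706179, described as the corepressor LEUNIG, was called higher in male week 3, at 31.0 ± 2.45 FPKM in female and 52.9 ± 4.60 FPKM in male apices. Another LEUNIG gene, LOC115702276, has the higher identity to it, 73.19% against 59.14%. Its difference was 0.35 ± 0.11 (limma adjusted p = 0.0206). That call was lost after scaling to equal totals (0.07) and in some runs with a library left out. The LEUNIG partner SEUSS, LOC115710310, was called lower in male week 3, at 46.1 ± 0.0697 FPKM in female and 25.4 ± 2.94 FPKM in male apices. The histone methyltransferase gene CLF, LOC115705249, whose product keeps AGAMOUS silent in Arabidopsis leaves, ran from 14.8 to 18.7 FPKM over the 5 group means and was not called between the sexes at week 3.

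Genes that act below or beside this clade in the stamens, carpels and ovules of Arabidopsis were matched for 22 genes, of which 16 passed the filter; ALC, HEC2, HEC3, NUB, VDD and GIK had no match. Between male and female week 3 apices 3 were higher, 11 lower and 2 not called, with a median of -1.54. Over all genes tested 31.7% were called higher and 28.6% lower. The carpel gene CRABS CLAW, LOC115699020, was at 20.7 ± 2.95 FPKM in female and 0.607 ± 0.104 FPKM in male week 3 apices (SD, n = 2), a difference of -3.75 ± 0.24 (limma adjusted p = 5.03e-07). At week 1 it stood at 3.96 ± 0.539 FPKM in female and 5.48 ± 2.11 FPKM in male apices, against 0.491 ± 0.263 FPKM in vegetative apices. LOC115712570, closest to the fruit valve margin gene INDEHISCENT, was at 8.44 ± 0.871 and 0.410 ± 0.00135 FPKM in female and male week 3 apices. LOC115712472, closest to the ovule gene INNER NO OUTER, was at 3.37 ± 1.46 and 0.0420 ± 0.0594 FPKM. LOC115708131, closest to the seed coat flavonoid gene BANYULS, was at 109 ± 19.6 and 35.6 ± 7.88 FPKM. All 4 were called lower in male apices.

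Among the 3 genes of this list that were higher in male week 3 apices, LOC115700338 is described as zinc finger protein 6 and is closest to KNUCKLES, the AGAMOUS target that shuts off WUSCHEL in Arabidopsis. It was listed at 0 in both female week 3 libraries and stood at 44.8 ± 0.285 FPKM in male week 3 apices. LOC115695116 is closest to SPOROCYTELESS, the AGAMOUS target that starts spore formation in Arabidopsis. It was at 0.478 ± 0.0986 FPKM in female and 4.31 ± 0.353 FPKM in male week 3 apices, a difference of 1.84 ± 0.14 (limma adjusted p = 2.32e-06). The third, SPATULA, LOC115714981, a carpel margin gene, was at 14.4 ± 0.465 and 19.8 ± 0.110 FPKM. Its difference of 0.43 ± 0.15 (limma adjusted p = 0.0295) missed the threshold without any 1 of the 4 week 3 libraries and after scaling to equal totals. Against vegetative apices 7 genes of the list were higher and 1 lower in female week 3, and 6 were higher and 6 lower in male week 3. Over all genes tested 19.8% and 34.8% were called higher in these comparisons, and 3067 and 5117 of the 18309 genes were called lower.

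**Figure D4:**
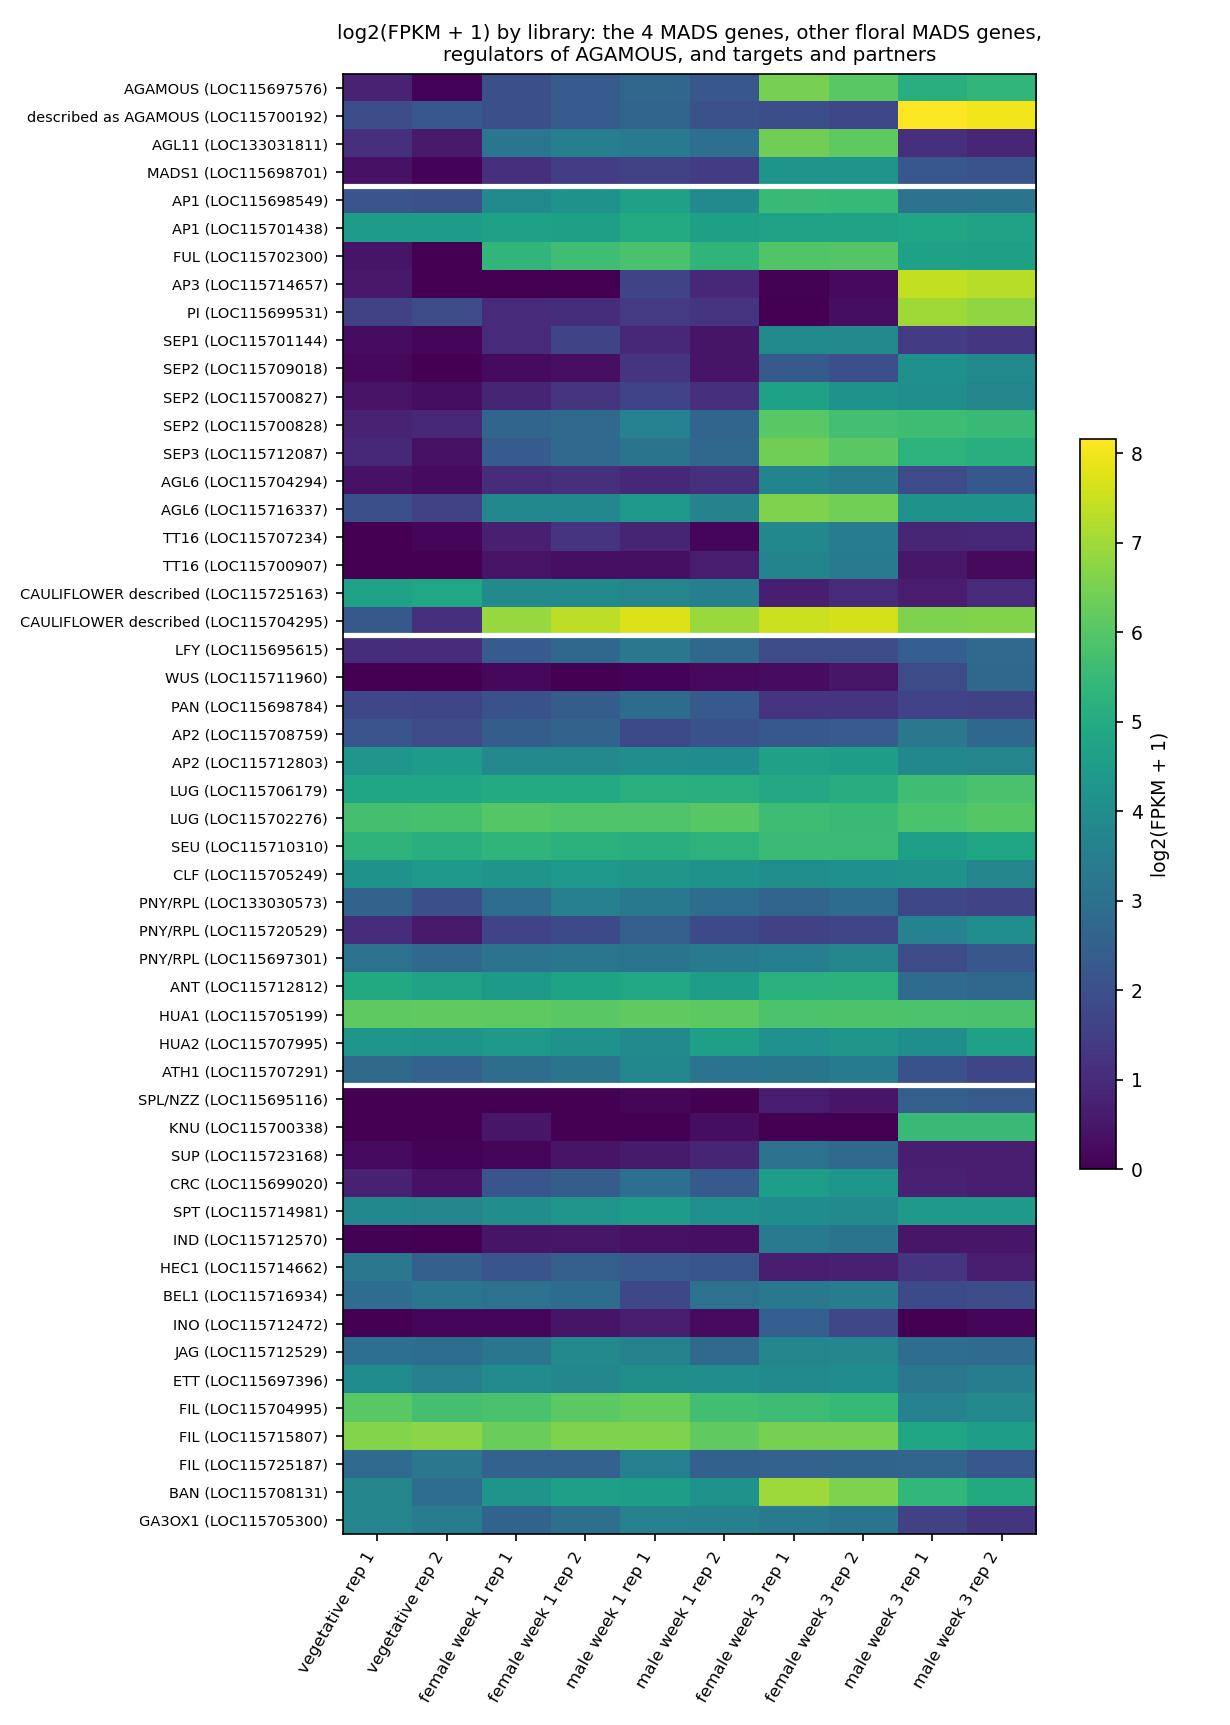
Level as log2(FPKM + 1) (colour) in each of the 10 libraries (columns) for the 4 MADS genes and, below the white lines, the tested genes among the other floral MADS-box genes, the regulators of AGAMOUS, and the targets and partners (rows, named by closest Arabidopsis gene). CRABS CLAW follows AGL11, high in female week 3 and low in male week 3, and KNUCKLES, APETALA3 and PISTILLATA are high in male week 3, as LOC115700192 is.

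Summed markers of the tissues that a flowering apex can hold differed between the sexes at week 3. The summed level of 16 tapetum and anther markers was 9.5 to 17.6 FPKM in the 8 libraries of vegetative, week 1 and female week 3 apices and 2060 and 2990 FPKM in the male week 3 libraries. All 16 were called higher in male than in female week 3 apices, where 31.7% of all genes tested were called higher and 28.6% lower. Only 1 of the 16, CYP704B1, had a mean of 1 FPKM or more in any group other than male week 3. The rest passed the filter through male week 3 alone, so their calls were nearly fixed in advance and lend no separate support. In both female week 3 libraries 6 of the 16, among these MYB80, MS1 and ABCG26, were listed at 0. The summed level of 7 carpel and ovule markers was 76.2 and 64.5 FPKM in female week 3 libraries. It was 24.9 and 25.6 FPKM in male week 3 libraries and 25.4 to 36.1 FPKM in the others. Of the 7, 5 were called lower and 1, SPATULA, higher in male than in female week 3 apices. All 7, and WUSCHEL among the meristem markers below, were already counted in the lists above. The sum does not describe every marker: HEC1, LOC115714662, was at 0.593 ± 0.0654 FPKM in female week 3 and 6.67 ± 2.78 FPKM in vegetative apices, a difference of -2.22 ± 0.27 (limma adjusted p = 0.000215). For 7 apical meristem markers the sum ran from 25.3 to 53.0 FPKM over the 10 libraries, lowest in male week 3, and of the 6 tested 5 were called lower and 1, WUSCHEL, higher in male than in female week 3 apices. The 5 lower ones were 3 without either female week 3 library and 2 without either male week 3 library. CLV3 had no match, and in vegetative apices WUSCHEL and a gene described as CLAVATA1-like were listed at 0, so the label of shoot apex rested there on the other 5 markers. The part of these tissues in the differences of AGAMOUS, MADS1, AGL11 and LOC115700192 was not tested, and in bulk tissue fewer cells of a type and less RNA per cell cannot be told apart. Totals of FPKM ran from 603616 to 764672, depth estimated from the low values varied from 0.863 to 1.235 of that in female week 1 replicate 1, and the depth in reads is unknown.

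For each of the 4 genes, the 5 genes with the highest Pearson correlation over the 10 libraries were listed. They were taken among 9211 genes with a described product and a mean of 10 FPKM or more in some group. Genes of uncharacterized or hypothetical product were left out. The libraries share their groups, so r is a description of likeness in pattern. For AGAMOUS these were the SEPALLATA3 counterpart MADS4 (r = 0.9955), a group 3 late embryogenesis abundant protein gene, LOC115696873 (r = 0.9934), 2 MADS2 genes closest to SEPALLATA2, LOC115700828 and LOC115700827 (r = 0.9852 and 0.9844), and pectinesterase 2, LOC115705851 (r = 0.9843). LOC115700828 stood at 59.6 ± 10.5 FPKM in female and 46.4 ± 3.09 FPKM in male week 3 apices. For AGL11 the first was CRABS CLAW (r = 0.9911), and no other of the described genes reached 0.98. Then came auxin-responsive protein IAA16, LOC115718979 (r = 0.979), RABC2a, receptor like protein 29 and DRT100.

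For MADS1 the list began with the homeobox gene ATHB-12, LOC115706074 (r = 0.9933), followed by 3 genes of flavonoid synthesis: dihydroflavonol 4-reductase, LOC115710150 (r = 0.9931), a flavanone 3-dioxygenase-like gene, LOC133031766 (r = 0.9905), and flavonoid 3'-monooxygenase, LOC115709933 (r = 0.9894). Aspartic proteinase A1 was the fifth (r = 0.9888). Dihydroflavonol 4-reductase stood at 722.2 ± 121.8 FPKM in female and 104.6 ± 19.5 FPKM in male week 3 apices. LOC115700192 had 295 described genes at r of at least 0.99, against 2 for AGAMOUS, 1 for AGL11 and 3 for MADS1. Any gene raised in male week 3 alone correlates highly with such a pattern. Over all genes tested, 34.8% were called higher in male week 3 than in vegetative apices. The count therefore does not by itself set LOC115700192 apart. Its first was a 5'-methylthioadenosine/S-adenosylhomocysteine nucleosidase gene, LOC115704327 (r = 0.9983), at 204.2 ± 4.80 FPKM in male and 19.2 ± 0.596 FPKM in female week 3 apices, followed by ceramide synthase LOH2, PMT2, subunit 2 of the mRNA-decapping enzyme and a late embryogenesis abundant protein gene. Membership of these lists depended on the measure: with Spearman's rho 1 of 5 genes was shared for AGAMOUS, AGL11 and MADS1 each and 0 for LOC115700192, and MADS4, CRABS CLAW and dihydroflavonol 4-reductase ranked 3, 3 and 1 for their MADS gene. Genes with equal rho were taken in table order. For AGAMOUS, LOC115700827 was tied with MADS4 at rank 3, so its count is 2 when tied genes share a rank.

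Neighbours on the chromosomes were taken as 3 genes on each side. Of those of LOC115700192, 5 passed the filter, and their male minus female differences at week 3 ran from -0.70 to 0.45, against 6.22 for LOC115700192; the nearest genes lay 9249 and 14428 bases away. Around AGL11, the nearest tested gene, LOC115715654, described as immune-associated nucleotide-binding protein 9-like and 9776 bases away, stood at 47.8 ± 3.17 FPKM in female and 35.6 ± 0.0831 FPKM in male week 3 apices. Its difference of -0.41 (limma adjusted p = 0.0129) had the direction of AGL11. On the other side, 13702 bases away, LOC133031810, of unknown product, stood at 30.3 ± 0.778 FPKM in female and 46.9 ± 0.970 FPKM in male week 3 apices, opposite in direction to AGL11. Next to MADS1, 3122 bases away, probable galacturonosyltransferase 15, LOC115699113, stood at 53.6 ± 1.72 FPKM in female and 57.8 ± 8.85 FPKM in male week 3 apices. AGAMOUS has a GDSL esterase/lipase gene, LOC115696799, 225 bases away, at 8.22 ± 1.13 FPKM in female and 3.48 ± 0.0479 FPKM in male week 3 apices, a difference of -1.04 (limma adjusted p = 0.00127). The difference of AGAMOUS was of like size there, at -1.01, but not against vegetative apices. In female and male week 3 LOC115696799 differed from those by 0.74 and -0.29 (limma adjusted p = 0.0155 and 0.223), and AGAMOUS by 5.85 and 4.84. Whether reads were counted by strand is not given in the labels or files.

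The calls for the 4 genes were set beside the authors' deposited table, which holds an adjusted p for each pair of groups. Of 40 comparisons, 37 fell on the same side of 0.05 in both. The other 3 were those of AGAMOUS in female and male week 1 against vegetative apices and of MADS1 in male week 3 against male week 1, each called by limma and not in the authors' deposited table.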

How the data were processed

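RNA of apical shoot tips was sequenced as 10 libraries, and the titles in the labels put 2 into each of 5 groups. Per the labels' protocols, a kit extraction with DNase treatment preceded Illumina library construction. The aligner and counting tool are not named in the labels or files. The FPKM values per gene and library are as deposited by the authors, with no unit in the header. The unit was read from the values: library totals differ, and within a gene the low values come in steps whose size differs between genes and libraries. RPKM would look alike. Per the file headers, the authors' table also holds a log2 fold change, a p-value and an adjusted p-value for each pair of groups and the percent identity to the closest Arabidopsis protein; the log2 fold changes were not used, and the p-values were set beside the limma calls. How much of each protein a match covers is not stated there.

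Of 35192 genes, 10910 were listed at 0 throughout, and 18309 had a group mean of 1 FPKM or more and were kept. Log2(FPKM + 1) was fitted with limma 3.58.1 (R 4.3.3), using all 10 libraries and a mean for each group, with moderation by trend and robust estimation. The residual degrees of freedom were 5 and the median prior degrees of freedom 4.63. All 10 pairs of groups and the interaction of week and sex were tested, 2-sided, with p adjusted over all genes kept by Benjamini-Hochberg and called under 0.05. The procedure was tested on simulated data. There are no counts, so no counting interval is given, and values near 0 are imprecise.

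The 4 genes, the gene lists and the tests were chosen with earlier results of these data known. Named genes were the 4 members and other floral MADS-box genes, regulators, and targets and partners, by closest Arabidopsis protein. To these were added the 5 genes of described product most like each member and 3 neighbours on each side. The text names a subset of the lists, chosen after their values were seen. Markers were of tapetum and anther, carpel and ovule, and apical meristem. Alternatives covered the pseudocount, the filter, scaling, moderation, the samples in the fit, a replicate block and each library left out. No sequences were used here, so the planned comparison of proteins and search of promoters were not run.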

Additional observations from a re-analysis of the deposited data

Results flagged for a closer look

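All 4 genes had a difference between the sexes that itself differed between week 3 and week 1, tested as the interaction in the limma fit over all 10 libraries. It was -5.13 for AGL11, -2.28 for MADS1 and -1.28 for AGAMOUS, each lower in male than in female apices at week 3, and 6.06 for LOC115700192, higher in male apices, all on the log2(FPKM + 1) scale. Between the sexes, none of the 4 was called by limma at week 1, where 0.137% of all genes tested were called. At week 3 all 4 were called, as were 60.3% of all genes tested. In the interaction the limma fit called 45.6% of all genes tested. Of these 4, the AGAMOUS value was the one that lost its call under any alternative. The summed tapetum and anther markers rose to 2060 and 2990 FPKM in male week 3 libraries and the summed carpel and ovule markers were highest in female week 3 libraries, at 76.2 and 64.5 FPKM; their part in these differences was not tested.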

How the results depend on the processing

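Of 836 values (44 comparisons of the 4 genes under 19 alternatives each), 815 kept direction and side of the threshold, 13 lost a call, 1 gained one and 7 changed sign. No called difference changed sign, and 29 of 34 called ones kept their call throughout; for the rest the cause was not tested. With a pseudocount of 0.1, AGAMOUS went to -1.03 between the sexes at week 3 and to -1.36 in the interaction, and MADS1 to 0.87 from male week 1 to week 3; with 5, MADS1 went to 0.32 in female week 1 against vegetative apices. Leaving out single libraries assumes that the lone library varies like the other groups. It gave AGAMOUS 1.39 to 2.10 in female week 1 against vegetative apices, -1.21 to -0.81 between the sexes at week 3 and -1.51 to -1.06 in the interaction, and MADS1 0.90 to 1.24 and 0.55 to 0.74 in its named pair of comparisons. LOC115700192 ran from -0.11 to 0.26 and -0.07 to 0.55 in female and male week 1 against vegetative apices, -0.14 to 0.47 between the sexes at week 1 and -0.80 to -0.18 in female week 3 against male week 1. AGL11 ran from -0.37 to 0.07 between the sexes at week 1 and -0.09 to 0.40 in male week 3 against vegetative apices. The sign changes were without vegetative replicate 1 or female week 1 replicate 2 (-0.0672 and -0.114) or male week 1 replicate 1 (-0.0682) for LOC115700192 against vegetative apices, without female or male week 1 replicate 1 between the sexes at week 1 (-0.0231 and -0.143), and for AGL11 without vegetative replicate 2 (-0.0868) or male week 1 replicate 2 (0.0696).

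The 25 genes called between the sexes at week 1 became 16 with a pseudocount of 0.1, 5 without a filter, 15 with plain moderation and 9 with those groups alone, and 5 to 86 with a library left out. Male against vegetative week 1 calls fell from 1172 to 404 with those groups alone. With a library left out, calls ran from 232 to 1341 (female week 1, 904 in full) and 658 to 1537 (male week 1) against vegetative apices, 4032 to 7492 in female week 3 against vegetative apices (6690), 3747 to 7203 against female week 1 (6438) and 3920 to 6729 against male week 1 (6617). Scaling to equal totals shifted the median of all genes by 0.20 in female week 3 minus vegetative apices and by -0.245 in male minus female week 3; calls that were higher went from 54.2% to 75.5% and from 52.5% to 38.5%, from 53.2% to 74.2% in female week 3 against week 1, from 53.1% to 75.8% against male week 1, and from 56.5% to 41.9% in the interaction. All calls of the 4 genes held.

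Same-numbered libraries of different groups had deviations that correlated at -0.417 to 0.215, so the numbers were not read as pairs. With the replicate number as a block no call of the 4 genes changed; calls between the sexes were 20 at week 1 and 10837 at week 3. The 5 genes most alike shared 1, 0, 1 and 1 with the lists by Spearman's rho and 0, 0, 2 and 1 with those over the 5 group means, for AGAMOUS, LOC115700192, AGL11 and MADS1; equal rho was taken in table order, and with shared ranks the first count is 2. The protein comparison and the promoter search for CArG boxes were not run. Depth in reads is unknown, which limits levels under 1 FPKM, such as those of vegetative apices.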
